A study of Homo sapiens with 9 samples.

Results

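The genes described here encode the enzymes that hydroxylate collagen chains inside the cell and crosslink the secreted fibers. They are the lysyl oxidases LOX, LOXL1, LOXL2, LOXL3 and LOXL4, the lysyl hydroxylases PLOD1, PLOD2 and PLOD3, and the prolyl 4-hydroxylase subunits P4HA1 and P4HA2. They were chosen by name, through the gene symbols of the array's annotation, and 9 of the 10 were measured, out of 17687 named genes on 21448 probe sets. Each of the 9 has 1 probe set. LOXL2 is named only.

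Clariom S Human arrays measured RNA of ASC52telo, an established line of adipose-derived mesenchymal stem cells (ASCs) that carries human telomerase reverse transcriptase. The study asked how inhibition of Rab7, a small GTPase of late endosomes, acts on ASCs that are being differentiated towards keratinocyte-like cells. The CID group (3 arrays) received differentiation medium (DM) with 40 μM CID-1067700, which inhibits Rab7, the DMSO group (3 arrays) received DM with 0.1% DMSO as the vehicle, and the DM group (3 arrays) received DM alone, each for 10 days. All groups shared a coat of rat-tail collagen type I and the additives of DM, which are BMP-4, EGF, ascorbic acid 2-phosphate, hydrocortisone and all-trans retinoic acid. Ascorbate is itself a cofactor of the hydroxylases. The share of DMSO in the CID wells was not stated, and the results hold for 1 cell line. The arrays of a group are labelled as biological replicates without saying whether they were separate cultures, so p-values cover just the spread among these arrays, which may be technical.

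Collagen chains are modified in the endoplasmic reticulum before they fold. Prolyl 4-hydroxylases convert prolines to 4-hydroxyproline, which stabilizes the triple helix, and lysyl hydroxylases convert lysines to hydroxylysine, the anchor of sugars and of the strongest crosslinks. Both families use oxygen, iron, 2-oxoglutarate and ascorbate. After secretion and trimming, lysyl oxidases, which depend on copper, oxidize lysine and hydroxylysine of collagen and lysine of elastin to aldehydes that join neighboring molecules. Mesenchymal and fibroblast-like cells are a main source of these enzymes.

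Several of these genes, LOX, PLOD2 and P4HA1 among them, are known to be induced under low oxygen, so the bases before their starts are shown for the measured genes that lay lowest, LOX and PLOD2, and for the one that lay highest, LOXL4, in CID relative to DM. Each window is the 250 bases before the RefSeq start of the gene, 5′ to 3′ on its own strand, in build GRCh38.p14. LOX lies on the minus strand at chr5:122078260-122078509, PLOD2 on the minus strand at chr3:146161185-146161434, and LOXL4 on the minus strand at chr10:98268195-98268444. Capitals mark ACGTG, 1 form of the core that hypoxia-inducible factors bind, or its reverse complement. Other forms, such as GCGTG, were neither marked nor counted.
LOX: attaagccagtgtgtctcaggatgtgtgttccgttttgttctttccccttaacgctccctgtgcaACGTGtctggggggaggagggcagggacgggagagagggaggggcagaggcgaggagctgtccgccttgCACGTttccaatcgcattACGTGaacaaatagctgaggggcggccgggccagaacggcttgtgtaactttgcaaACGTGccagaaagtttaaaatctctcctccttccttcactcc
PLOD2: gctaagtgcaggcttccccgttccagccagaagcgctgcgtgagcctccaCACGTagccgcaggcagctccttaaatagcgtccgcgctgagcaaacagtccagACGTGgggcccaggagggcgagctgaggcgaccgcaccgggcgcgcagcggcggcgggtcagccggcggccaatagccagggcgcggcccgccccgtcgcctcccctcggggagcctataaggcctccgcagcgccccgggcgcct
LOXL4: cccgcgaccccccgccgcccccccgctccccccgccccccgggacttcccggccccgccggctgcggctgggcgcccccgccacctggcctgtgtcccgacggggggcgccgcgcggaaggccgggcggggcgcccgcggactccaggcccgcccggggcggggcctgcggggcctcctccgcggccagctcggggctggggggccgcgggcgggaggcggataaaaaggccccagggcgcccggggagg
The LOX window holds ACGTG or its reverse complement 4 times, at positions -185, -116, -98 and -42 from the start. The PLOD2 window holds it 2 times, at -200 and -146, and the LOXL4 window does not hold these letters. P4HA1 has 1 match at -86, and the windows of the other 5 measured genes have none. So 3 of 9 hold ACGTG on either strand, against 18.5% of 35116 windows of the same length. For LOX 1 of 3 annotated windows was searched and is shown, and for LOXL3 1 of 2 was searched. The 18.5% counts all annotated windows, of which a gene can have several. These matches describe the letters of the windows only.

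CID arrays had less LOX transcript than DMSO arrays, by 1.78-fold, and LOX was the only 1 of the 9 measured genes that passed the test in any of the 3 comparisons. PLOD2, whose enzyme hydroxylates the lysines of collagen telopeptides, lay lower on every CID array than on every other array, as did LOX. LOXL4 lay higher in CID by the group means. Neither PLOD2 nor LOXL4 passed. The remaining genes differed less than LOX, PLOD2 and LOXL4 from either reference. With CID, 10.7% of all probe sets lay entirely below DMSO and 9.22% entirely below DM, and the share below both was not counted. DMSO and DM did not differ by the test in any of the 9 genes. A gene passed where limma gave an adjusted p under 0.05 (Benjamini-Hochberg over all probe sets) and the fold change was at least 1.5. In bulk RNA, fewer cells of a type and less RNA per cell cannot be told apart.

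LOX encodes the founding lysyl oxidase, which crosslinks fibrillar collagen and elastin. Its RMA values (a robust multi-array average, on the log2 scale) were 14.87, 14.54 and 14.69 on the CID arrays, 15.44, 15.58 and 15.58 on the DMSO arrays and 15.57, 14.97 and 15.27 on the DM arrays. All CID arrays lay below all DMSO arrays and below all DM arrays, with a gap of 0.10 between the highest CID array and the lowest DM array. The group means were 14.70 ± 0.17 with CID, 15.53 ± 0.081 with DMSO and 15.27 ± 0.30 with DM (SD, n = 3 each). The log2 fold change for CID against DMSO was -0.83 (SE 0.16, 95% interval -1.18 to -0.48, limma adjusted p = 0.0198). Against DM it was -0.57 (interval -0.92 to -0.22, limma adjusted p = 0.131), a 1.48-fold difference that passed neither threshold. Under a trended and robust variance prior the limma adjusted p against DM was 0.0152, and only the fold fell short. The 2 comparisons share the CID arrays, and DMSO lay above DM by 0.26 (interval -0.09 to 0.61, limma adjusted p = 0.794), which did not pass. Set against the average of the DMSO and DM means, a reference chosen after seeing the data, LOX was 1.63-fold lower in CID (log2 fold change -0.70, interval -1.01 to -0.40, limma adjusted p = 0.0189), where 2.44% of all probe sets passed. The call against DMSO was lost when CID replicate 2, CID replicate 3, DMSO replicate 2 or DMSO replicate 3 was left out (limma adjusted p of 0.0802, 0.0705, 0.0765 and 0.0767, in that order), while the log2 fold change stayed between -0.92 and -0.75 over the 6 omissions. The methods' t-test, adjusted in the same way over all probe sets, gave an adjusted p of 0.112.

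Of the lysyl oxidase relatives, LOXL4 was the only one with a higher mean in CID. Its log2 values were 7.58, 7.33 and 6.51 with CID, 6.42, 6.14 and 6.41 with DMSO and 6.28, 5.64 and 6.90 with DM. The CID arrays lay above all DMSO arrays, but CID replicate 3 lay below DM replicate 3. The log2 fold change was 0.82 for CID against DMSO (interval 0.12 to 1.52, limma adjusted p = 0.246) and 0.87 for CID against DM (interval 0.17 to 1.57, limma adjusted p = 0.270), so the differences exceeded 1.5-fold without passing the test. Leaving out 1 array moved the value against DM between 0.55 and 1.18, and the value against DMSO between 0.60 and 1.13. DMSO and DM means differed by 0.05 (interval -0.65 to 0.75).

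LOXL1, which is needed for elastic fiber upkeep, had log2 values of 10.53, 10.76 and 10.49 with CID, 10.63, 11.49 and 10.50 with DMSO and 10.72, 11.37 and 10.75 with DM. The groups overlapped, and replicate 2 was the highest array of each group. Its log2 fold changes were -0.28 for CID against DMSO (interval -0.84 to 0.28) and -0.35 for CID against DM (interval -0.92 to 0.21), neither passing the test. LOXL3, known for its part in cartilage and muscle-tendon junctions in mice, had values of 6.09, 6.79 and 6.52 with CID, 6.88, 6.58 and 6.55 with DMSO and 6.80, 7.03 and 6.73 with DM. It was overlapping in both comparisons, with log2 fold changes of -0.20 against DMSO (interval -0.60 to 0.19) and -0.39 against DM (interval -0.78 to 0.01, and -0.20 without CID replicate 1).

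PLOD2 was the lysyl hydroxylase with the largest difference from DM. Its log2 values were 14.31, 14.56 and 14.26 with CID, 14.68, 15.41 and 14.66 with DMSO and 15.06, 15.17 and 14.82 with DM. Every CID array lay below every DMSO and DM array, with the highest CID array 0.10 below the lowest DMSO array. The log2 fold change was -0.54 for CID against DMSO (interval -0.98 to -0.10, limma adjusted p = 0.217) and -0.64 for CID against DM (interval -1.08 to -0.20, limma adjusted p = 0.182). The value against DMSO became -0.29 without DMSO replicate 2, the array with the highest PLOD2 of all 9. Under a trended and robust variance prior PLOD2 passed the test against DM (limma adjusted p = 0.0373), where 476 probe sets passed against 289 in the main fit. PLOD2 passed against DM in no other setting tried. Its limma adjusted p there was 0.219 to 0.372 without 1 array, and the methods' t-test gave an adjusted p of 0.272.

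PLOD1 encodes the hydroxylase of helical lysines, and its values were close together: 12.62, 12.62 and 12.55 with CID, 12.85, 13.03 and 12.85 with DMSO and 12.87, 12.53 and 12.66 with DM. CID lay below all DMSO arrays but overlapped with DM. The log2 fold change was -0.31 against DMSO (interval -0.59 to -0.04, limma adjusted p = 0.254) and -0.09 against DM (interval -0.36 to 0.18, limma adjusted p = 0.818). PLOD3, which also adds the sugars that follow hydroxylysine, had values of 9.40, 9.27 and 8.86 with CID, 9.77, 9.75 and 9.35 with DMSO and 9.36 on all 3 DM arrays. Its groups overlapped in both comparisons, with a log2 fold change of -0.45 against DMSO (interval -0.81 to -0.09, limma adjusted p = 0.213, and -0.29 without CID replicate 3) and -0.18 against DM (interval -0.54 to 0.18). Equal values on the 3 DM arrays occurred for 14 of all probe sets, and the spread used in the test was the one shared by all 9 arrays.

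The prolyl 4-hydroxylase subunits differed in sign. P4HA1, the main catalytic subunit in most tissues, had values of 11.01, 11.44 and 11.18 with CID, 11.59, 12.11 and 11.33 with DMSO and 11.65, 11.50 and 11.42 with DM. The log2 fold change was -0.47 against DMSO (interval -0.89 to -0.04, limma adjusted p = 0.277, and -0.25 without DMSO replicate 2) and -0.31 against DM (interval -0.74 to 0.11, limma adjusted p = 0.548). P4HA2, the catalytic subunit more used in cartilage and bone, had values of 11.80, 12.08 and 11.70 with CID, 11.81, 12.02 and 11.56 with DMSO and 11.82, 11.61 and 11.50 with DM. The CID arrays overlapped with both other groups for each subunit. P4HA2 differed by 0.06 from DMSO (interval -0.28 to 0.41, limma adjusted p = 0.897) and by 0.22 from DM (interval -0.13 to 0.56, limma adjusted p = 0.625).

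**Figure D1:**
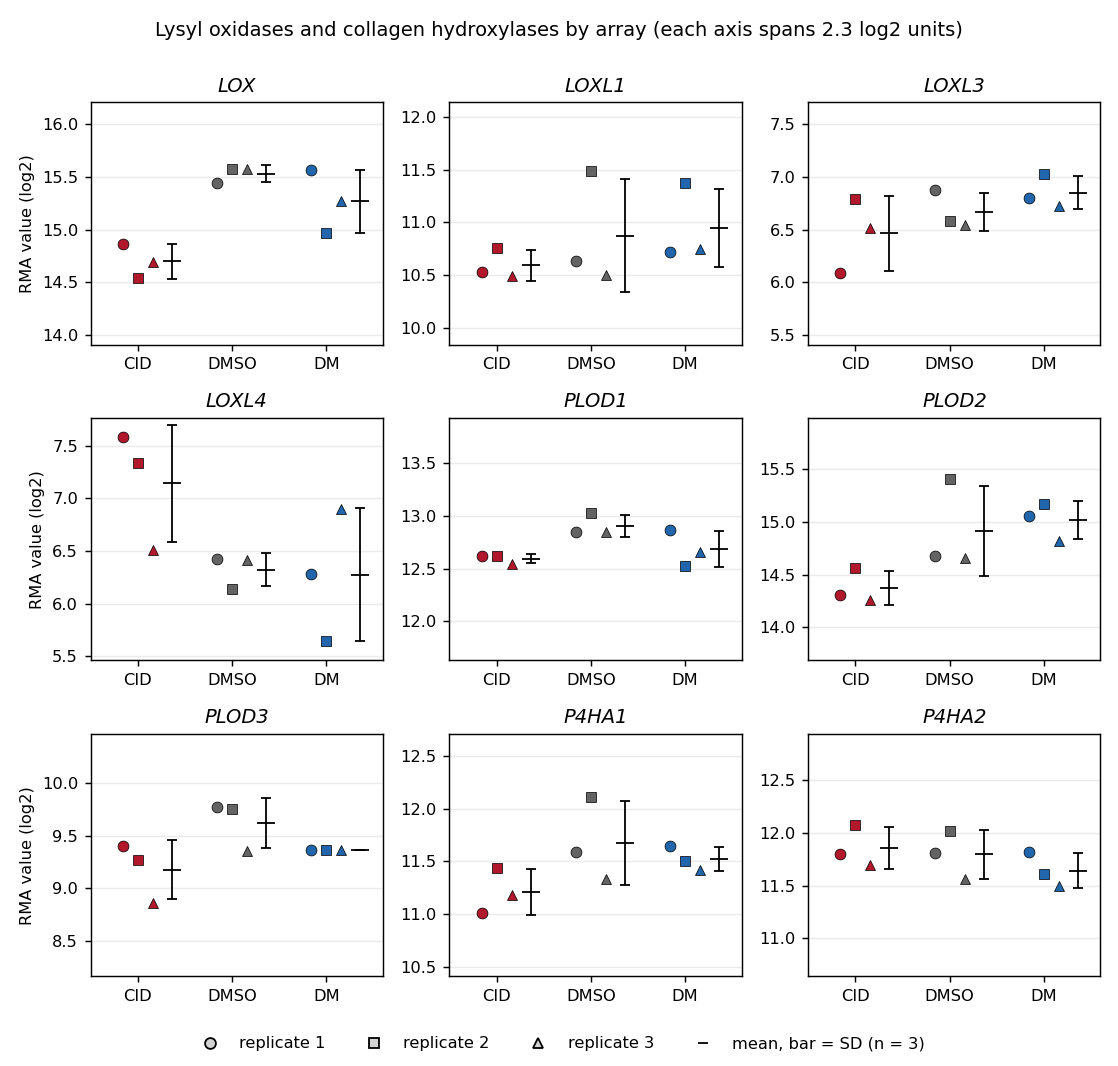
RMA values (log2) of the 9 measured genes on each array, with CID left of DMSO and DM, markers for replicates 1 to 3 and bars for the mean ± SD of 3 arrays; each axis spans 2.3 log2 units. The 3 CID arrays lie below all other arrays for LOX (14.54 to 14.87) and PLOD2 (14.26 to 14.56), and above all DMSO arrays for LOXL4. Among all probe sets, 10.7% lie entirely below DMSO, 9.22% entirely below DM and 10.6% entirely above DMSO.

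Counted over the 9 measured genes, 1 passed in CID against DMSO, where 2.41% of all probe sets did (1.74% lower), and 0 passed in CID against DM, where 1.35% did. At an unadjusted p under 0.05 in limma, 6 of 9 differed between CID and DMSO (5 lower and LOXL4 higher) where 15.2% of all probe sets did (7.96% lower and 7.2% higher), and 3 of 9 between CID and DM (LOX and PLOD2 lower, LOXL4 higher) where 12.6% did (6.9% lower and 5.74% higher). The methods' t-test passed 0 in each, but of 21448 probe sets it passed only 21 in CID against DMSO and 2 in CID against DM. For CID against DMSO, 3 genes lay entirely below (LOX, PLOD1 and PLOD2), as did 10.7% of probe sets, and 1 entirely above (LOXL4), as did 10.6%. For CID against DM, 2 genes lay entirely below, as did 9.22%, and 0 entirely above, as did 8.68%. The median log2 fold change over the 9 genes was -0.31 against each reference, where the median over all probe sets was 0.02 against DMSO and 0.01 against DM. The 9 genes were measured on the same arrays, and the comparisons share the CID arrays, so these counts are a description.

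In DMSO against DM, 0 of 9 genes passed and 0 had an unadjusted p under 0.05 in limma, where 0.00466% and 6.98% of all probe sets did. The methods' t-test passed 0 as well, and 0 of all probe sets. None of the 9 had groups without overlap, as did 11.8% of probe sets. The widest interval among them was that of LOXL4.

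**Figure D2:**
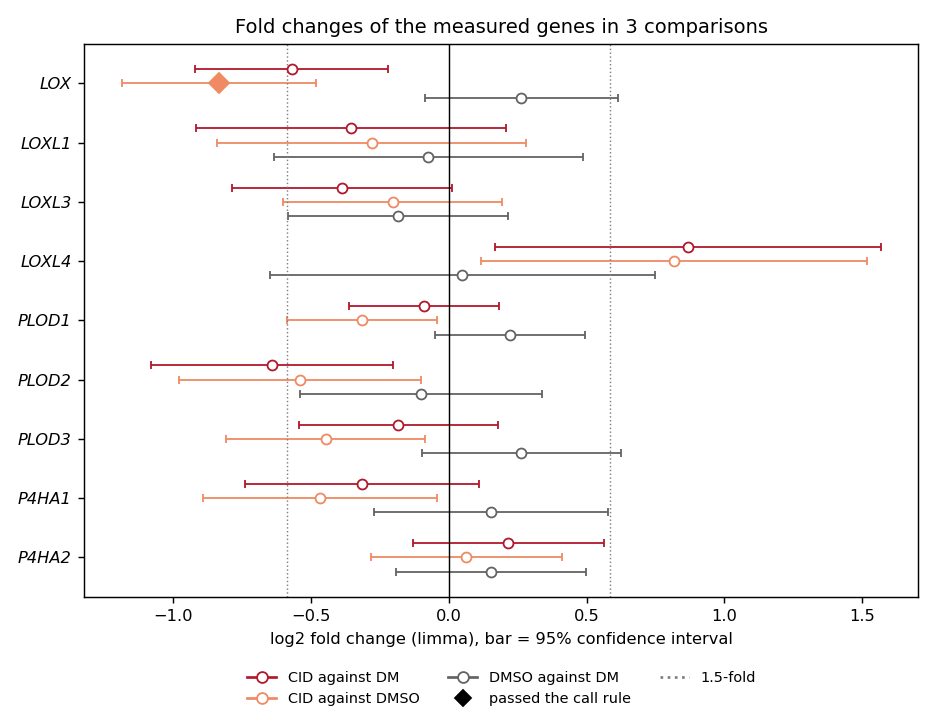
Log2 fold changes (limma) with 95% confidence intervals of the 9 measured genes for CID against DMSO, CID against DM and DMSO against DM, with dotted lines at 1.5-fold and a filled diamond where the test was passed. Only LOX in CID against DMSO (-0.83) carries a diamond, and LOXL4 has the widest intervals.

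By the smallest root mean square difference of log2 values centered on each gene's mean over the 9 arrays, the genes with the pattern most like LOX were TIMP3 (0.102), SPOCK1 (0.107) and CDON (0.108), where LOX itself spans 1.04. TIMP3 encodes a tissue inhibitor of metalloproteinases, SPOCK1 a proteoglycan and CDON a cell surface receptor. Since they were selected for the LOX pattern, their values are a description without a test. Their log2 fold changes for CID against DMSO were -0.72, -0.77 and -0.75, and those for CID against DM -0.38, -0.48 and -0.43, in that order.

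The partners of these enzymes gave few calls, and each rise, fall or difference given for them and for the genes after them is a log2 fold change of CID. Of 16 measured genes for modification and folding of collagen in the endoplasmic reticulum, 1 rose in CID against DM and 1 fell in CID against DMSO, with medians of -0.16 against DMSO and -0.09 against DM. At an unadjusted p under 0.05 in limma, 4 were higher and 4 lower against DM, and 2 higher and 5 lower against DMSO. Of all probe sets, 5.74% were higher and 6.9% lower against DM at that p, and 7.2% and 7.96% against DMSO. The shares of all probe sets that passed, against which the counts of this and the other lists stand, were 0.667% higher and 1.74% lower against DMSO, and 0.378% higher and 0.97% lower against DM. SERPINH1, the collagen chaperone HSP47, fell by 0.77 on the log2 scale against DMSO (limma adjusted p = 0.0310), and its difference from DM was -0.51 (limma adjusted p = 0.197). TMEM38B, a cation channel of the endoplasmic reticulum whose loss causes brittle bone, rose by 0.66 against DM (limma adjusted p = 0.0263). Against DMSO it differed by 0.55 (limma adjusted p = 0.0404), a 1.46-fold difference that missed the call by its fold. P4HB, the other subunit of prolyl 4-hydroxylase and named after its values were seen, differed by -0.36 from DMSO (limma adjusted p = 0.129) and by -0.33 from DM (limma adjusted p = 0.210). The SERPINH1 call was lost in 5 of 6 omissions of 1 array, all but DMSO replicate 3, and the TMEM38B call in 5 of 6, all but DM replicate 2.

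Downstream of the enzymes, 2 of 14 genes of procollagen processing and lysyl oxidase scaffolds fell in CID against DMSO and 0 changed in CID against DM. FBLN5, an elastic fiber protein that binds lysyl oxidases, fell by 0.82 (limma adjusted p = 0.0251), and FMOD, a collagen-binding proteoglycan known to bind LOX, fell by 0.62 (limma adjusted p = 0.0498). The medians of the list were -0.33 against DMSO and -0.24 against DM, and 6 of 14 were lower at an unadjusted p under 0.05 in each, as were 7.96% of all probe sets against DMSO and 6.9% against DM. The FBLN5 call was lost without CID replicate 2, CID replicate 3, DMSO replicate 1 or DMSO replicate 3, and the FMOD call in 5 of 6 omissions.

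Among the listed substrates, COL1A1 and COL5A2 fell in both comparisons. Of 11 listed genes for fibrillar collagen chains and elastin, 4 fell against DMSO and 2 against DM, and 0 rose in either. The list leaves out COL3A1, the chain of type III collagen, so its counts, medians and ranges do not cover all fibrillar collagens. The paper lists COL3A1 among the genes lower in CID than in DM. The medians of the list were -0.19 against DMSO and -0.18 against DM, and its genes ranged from -1.24 to 0.30 and from -1.14 to 0.28, in that order. At an unadjusted p under 0.05 in limma, 5 of 11 were lower and 0 higher in each. Among all probe sets, 7.96% were lower and 7.2% higher against DMSO at that p, and 6.9% and 5.74% against DM. COL1A1, which gives type I collagen its more abundant chain, fell by 1.24 against DMSO (limma adjusted p = 0.0026) and by 1.14 against DM (limma adjusted p = 0.0069), and both calls held without any 1 array. COL5A2, a chain of type V collagen, which limits fibril width, fell by 1.20 against DMSO (limma adjusted p = 0.0047) and by 0.92 against DM (limma adjusted p = 0.0271), the call against DM being lost in each of the 6 omissions. COL5A1 fell by 0.85 against DMSO (limma adjusted p = 0.0178), a call lost in 5 of 6 omissions, all but DMSO replicate 1. COL1A2 fell by 0.77 against DMSO (limma adjusted p = 0.0324), a call lost in each of 6.

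The list of copper supply and that of other oxygenases gave no call. Of 8 genes of copper supply and 9 of other 2-oxoglutarate oxygenases and ascorbate uptake, 0 changed in either comparison by limma. At an unadjusted p under 0.05 in limma, 1 of 8 and 1 of 9 differed against DM, where 12.6% of all probe sets did. Against DMSO, 0 of 8 and 1 of 9 did, where 15.2% of all probe sets did. The medians of both lists lay between -0.04 and 0.11. Among 20 measured hypoxia response genes, 2 fell and 1 rose in each comparison. EGLN3, an oxygenase, stands in this list and in that of other oxygenases. ADM, the peptide adrenomedullin, fell by 1.22 against DMSO (limma adjusted p = 0.0024) and by 1.24 against DM (limma adjusted p = 0.0032). SLC2A1, a glucose transporter, fell by 0.72 against DMSO (limma adjusted p = 0.0138, a call lost without CID replicate 3 or DMSO replicate 3) and by 0.63 against DM (limma adjusted p = 0.0397, lost in each of 6 omissions, with median centring, with the replicate block and with only the CID and DM arrays). ANGPTL4, a lipase inhibitor, rose by 1.08 against DMSO (limma adjusted p = 0.0014) and by 0.73 against DM (limma adjusted p = 0.0137, lost without DM replicate 3, CID replicate 2 or CID replicate 3). The medians of this list were -0.03 against DMSO and -0.10 against DM, and the other 17 genes did not pass. At an unadjusted p under 0.05 in limma, 2 of the 20 were higher and 6 lower against DMSO, and 1 higher and 6 lower against DM. The shares of all probe sets at that p were 7.2% higher and 7.96% lower against DMSO, and 5.74% and 6.9% against DM.

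Of 7 measured TGF-beta ligands and response genes, 1 fell and 0 rose in each comparison. CCN2, a matrix protein induced by TGF-beta, fell by 1.06 against DMSO (limma adjusted p = 0.0081) and by 1.04 against DM (limma adjusted p = 0.0137, lost without DM replicate 1, CID replicate 1 or CID replicate 3). The list medians were 0.06 against each. At an unadjusted p under 0.05 in limma, 1 of the 7 was higher and 1 lower against DMSO, and 3 were higher and 2 lower against DM. Over all probe sets, 7.2% were higher and 7.96% lower against DMSO at that p, and 5.74% and 6.9% against DM.

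**Figure D3:**
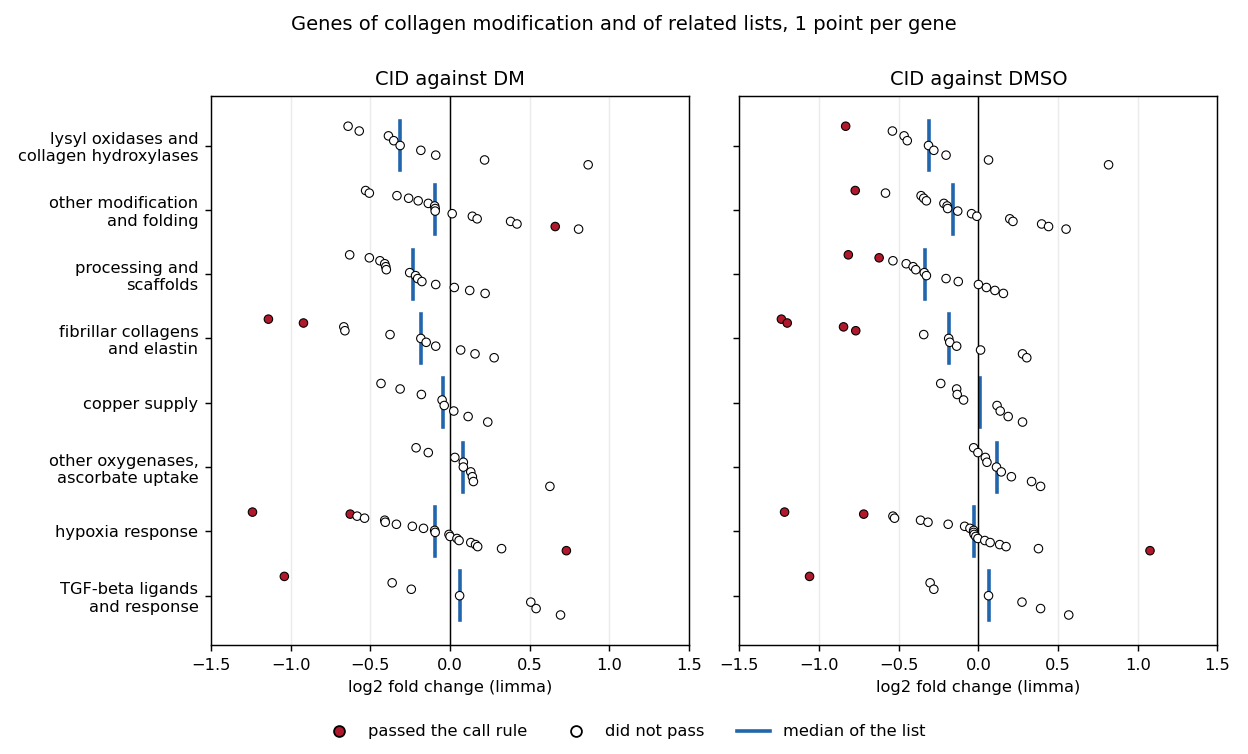
Log2 fold changes (limma) of the genes described here and of 7 related lists, 1 point per gene, filled red where the test was passed, with the list's median as a blue bar. In the fibrillar collagen list, which leaves out COL3A1, 4 genes pass below 0 for CID against DMSO and 2 for CID against DM. The list of copper supply and that of other oxygenases and ascorbate uptake hold no passing gene.

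Levels of different probe sets cannot be set against each other, so marker genes are given only between groups, and the labelled cell type was not tested by them. The mean of 7 mesenchymal markers was 14.69 to 14.74 on the CID arrays, 14.79 to 14.96 on the DMSO arrays and 14.73 to 14.84 on the DM arrays, while the mean of 8 keratinocyte markers was 4.97 to 5.06 on the CID arrays, 4.80 to 5.00 on the DMSO arrays and 4.84 to 5.00 on the DM arrays. The mesenchymal markers went both ways in CID against DMSO, with log2 fold changes of -0.77 to 0.45 and a median of -0.14. An unadjusted p under 0.05 in limma was reached by 3 that were lower and 1 that was higher, where 7.96% and 7.2% of all probe sets were. PDGFRB, a mesenchymal receptor, was the 1 of these 7 that passed the test, with a fall of 0.77 (limma adjusted p = 0.0064). Against DM, 0 of the 7 passed, with log2 fold changes of -0.46 to 0.39 and a median of -0.06. At that unadjusted p, 2 were lower and 0 higher against DM, where 6.9% and 5.74% of all probe sets were. Of the keratinocyte markers, DSP, a desmosomal protein, rose by 0.66 in CID against DMSO (limma adjusted p = 0.0327). That call was lost in each of 6 omissions, and the mean log2 value of DSP was 11.08 over the 9 arrays. The other 7 did not pass in either comparison, and 0 of the 8 passed against DM. The 8 went both ways, with log2 fold changes of -0.15 to 0.66 (median 0.10) against DMSO. From DM they differed by -0.34 to 0.47 (median 0.07). In each comparison, 1 of the 8 rose and 0 fell with an unadjusted limma p below 0.05. At that p, 7.2% of all probe sets rose and 7.96% fell against DMSO, and 5.74% and 6.9% against DM. The mean of the mesenchymal markers lay lower on every CID array than on every DMSO array, as did LOX. That mean overlapped between CID and DM, while LOX did not. The part of these markers in the LOX difference was not tested. Endothelial, leukocyte and adipocyte markers (3, 3 and 4 measured) gave no calls in limma. Against DMSO, 0, 1 (higher) and 3 (2 higher and 1 lower) had an unadjusted p under 0.05 in limma, where 15.2% of all probe sets did. Against DM, 1 (lower), 0 and 2 (both higher) did, where 12.6% of all probe sets did. The mean of the 4 adipocyte markers was 4.34 to 4.60 on the CID arrays, 4.20 to 4.52 on the DMSO arrays and 4.135 to 4.178 on the DM arrays. Array medians were 7.06 to 7.14, and arrays of a group correlated at 0.994 to 0.995. The files hold no detection call.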

How the data were processed

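The authors summarized each probe set by RMA with Transcriptome Analysis Console, whose output they deposited as log2 values. The program's version and its use of the signal space option were not given in the sources used here. In limma 3.58.1 (R 4.3.3 and statmod 1.5.0), means of CID, DMSO and DM were fitted jointly to the 9 arrays (6 residual degrees of freedom), and p-values were adjusted by Benjamini-Hochberg over 21448 probe sets. A gene was called at an adjusted p under 0.05 and a fold change of at least 1.5, and intervals are limma's. Genes with several probe sets were given by the highest mean.

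The genes and lists were chosen with earlier results of these data known. Named were all 10 genes, up to 4 called genes of each list by change against DM, and the 3 genes most like each called one. Promoter letters came from RefSeq. Alternatives were other normalizations, priors, filters, weights, blocks and tests, and leaving out each array. The methods' t-test was among them and is not the study's array method. The number of arrays limits the precision. Figures used matplotlib 3.10.9.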

Additional observations from a re-analysis of the deposited data

How the results depend on the processing

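Of 414 recomputed values of the 9 genes, 395 kept their direction and side of the threshold, 5 lost and 2 gained the call, and 12 changed sign, all of them values that had not passed the test. Those without 1 array ranged from -0.17 to 0.0017 for PLOD1 (CID against DM), from -0.055 to 0.18 for P4HA2 and from -0.47 to 0.028 for LOXL1 (CID against DMSO), and for DMSO against DM from -0.38 to 0.14 for LOXL1, from -0.27 to 0.36 for LOXL4, from -0.35 to 0.028 for PLOD2 and from -0.063 to 0.33 for P4HA1. With array weights LOXL4 was -0.092 for DMSO against DM. The probe sets called in CID against DM were 289, and 476 with a trended and robust prior (1 of the 9 genes, PLOD2), 2 by the methods' t-test, 523 against the average of DM and DMSO (1 gene, LOX) and 137 to 224 without 1 array. In CID against DMSO 517 were called, 21 by the methods' t-test (0 of the 9 genes) and 264 to 405 without 1 array (0 to 1 of the 9 genes). In DMSO against DM 1 was called, 5 with the trended prior, 0 with only the arrays of both groups, 0 by the methods' t-test and 0 to 1 without 1 array; the cause was not tested.

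The replicate number as a block gave 275 probe sets in CID against DM, 507 in CID against DMSO and 0 in DMSO against DM, with 0, 1 and 0 of the 9 genes (LOX against DMSO, limma adjusted p = 0.0276). Of the genes named from the other lists, SLC2A1 against DM lost its call with the block (limma adjusted p = 0.0544), with median centring (0.0517) and with only the arrays of both groups (0.0714), and the methods' t-test called none of them (adjusted p of 0.088 to 0.262). With only the arrays of both groups TMEM38B (0.0603, against DM), SERPINH1 (0.0754) and FMOD (0.096) also lost theirs, as did SERPINH1 (0.0503), FMOD (0.056) and COL1A2 (0.0504) with repeated quantile normalization, all against DMSO but for TMEM38B. Deviations of same-numbered arrays correlated at -0.052 to 0.068 over 9 pairs, and those of differently numbered arrays at -0.071 to 0.061 over 18. Between CID and DMSO, same-numbered arrays correlated at 0.065 to 0.068 and differently numbered ones at -0.049 to -0.017. Of 9 arrays, 7 correlated best with their own number. The numbers were not taken as pairs in the main fit, and these small values cannot settle whether CID and DMSO arrays were paired. PLOD2 and LOXL1 were highest on replicate 2 of each group, as were 3.75% of probe sets. With 3 arrays a group, and values that carry no detection call, a difference that missed the threshold may still exist.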
